A study of Mus musculus with 4 samples.

Results

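The genes of the chemokine ligands were examined for Runx3 binding in splenic CD4+ dendritic cells. The protein-coding genes of the GENCODE M1 annotation (mm9) with symbols Ccl or Cxcl followed by a digit were selected along with Cx3cl1 and Xcl1, which gave 37 of 22241 protein-coding genes. A peak was assigned to a gene when its centre lay in the gene body or within 10 kb of one of the gene's transcription start sites (TSSs), and distances are given from the nearest TSS of the gene. By this rule 9 of the 37 ligand genes had a Runx3 peak, namely Ccl1, Ccl3, Ccl4, Ccl5, Ccl9, Ccl17, Ccl25, Cxcl16 and Cx3cl1, and 28 had none. That is 24.3% of the ligand genes (Wilson 95% interval 13.4% to 40.1%, counting error only), beside 40.0% of all protein-coding genes, 8886 of 22241.

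Chromatin immunoprecipitation followed by sequencing (ChIP-seq) maps the DNA that a protein occupies in fixed cells. The data came from 2 Runx3 immunoprecipitates, made with an in-house polyclonal anti-Runx3 antibody, and 2 libraries of whole cell extract chromatin that served as input. All 4 samples were CD11chiMHCII+CD4+ cells sorted from the pooled spleens of approximately 15 mice. The strain was given as C57BL/6 for 3 samples and as C57BL/7 for the second input, with no treatment and no second genotype, and age and sex were not given. The peaks had been called once over the pooled libraries, so a peak had no value per replicate, no spread and no test, and the list held no read counts. The cell type was that of the sort gate and could not be checked, because Runx3 occupancy at a gene does not measure the expression of marker genes. The list held 15121 peaks with MACS2 scores from 1.33 to 309.3 (median 12.1, upper quartile 23.2), and the unit of the score was not stated.

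Chemokines are small secreted proteins that attract leukocytes through G-protein-coupled receptors. Most of them sit in clusters of neighbouring genes that arose by duplication, and dendritic cells both secrete chemokines and follow them between tissues. Runx3 is a DNA-binding transcription factor of the Runt family, and the core of the sequence that this family recognizes is TGTGGT.

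The sequences below show the parts of the chromatin described first. Each is a run of 220 bases of mm9 from inside a Runx3 peak, written 5′ to 3′ in the direction of the gene, and the capitals mark TGTGGT or its reverse complement ACCACA. Those of Ccl5, Ccl1 and Cx3cl1 are centred on the peak and were chosen because they carry the match close to the centre. Those of Ccl3 and Ccl4 show the peaks at the promoters. That of Ccl9 is the centre of a peak of similar score to that of Ccl5 in which the letters do not occur.
Ccl5 (chr11:83348617-83348836, minus strand): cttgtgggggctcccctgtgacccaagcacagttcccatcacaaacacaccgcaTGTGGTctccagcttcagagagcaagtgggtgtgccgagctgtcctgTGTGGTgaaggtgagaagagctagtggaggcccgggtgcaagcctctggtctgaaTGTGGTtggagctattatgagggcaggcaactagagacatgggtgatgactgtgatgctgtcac
Ccl3 promoter (chr11:83462858-83463077, minus strand): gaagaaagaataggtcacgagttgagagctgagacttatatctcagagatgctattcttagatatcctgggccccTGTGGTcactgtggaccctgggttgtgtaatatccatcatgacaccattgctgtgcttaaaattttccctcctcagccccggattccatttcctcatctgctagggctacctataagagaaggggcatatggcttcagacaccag
Ccl4 promoter (chr11:83475644-83475863, plus strand): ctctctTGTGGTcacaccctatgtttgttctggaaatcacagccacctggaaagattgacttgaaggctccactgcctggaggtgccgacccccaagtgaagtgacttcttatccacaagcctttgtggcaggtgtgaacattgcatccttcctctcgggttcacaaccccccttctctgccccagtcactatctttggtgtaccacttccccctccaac
Ccl1 (chr11:81996770-81996989, minus strand): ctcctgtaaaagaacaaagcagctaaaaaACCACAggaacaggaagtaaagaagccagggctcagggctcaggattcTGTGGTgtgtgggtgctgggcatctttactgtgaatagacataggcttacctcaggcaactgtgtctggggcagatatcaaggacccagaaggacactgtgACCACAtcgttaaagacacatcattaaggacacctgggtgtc
Cx3cl1 (chr8:97303144-97303363, plus strand): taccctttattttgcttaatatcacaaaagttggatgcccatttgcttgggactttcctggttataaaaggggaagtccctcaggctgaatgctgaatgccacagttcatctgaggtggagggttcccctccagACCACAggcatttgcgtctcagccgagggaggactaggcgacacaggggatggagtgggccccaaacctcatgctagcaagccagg
Ccl9 (chr11:83385806-83386025, minus strand): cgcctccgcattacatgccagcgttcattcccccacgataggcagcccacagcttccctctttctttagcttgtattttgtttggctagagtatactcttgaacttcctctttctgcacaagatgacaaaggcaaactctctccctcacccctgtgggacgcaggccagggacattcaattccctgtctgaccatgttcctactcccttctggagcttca
The Ccl5 and Ccl1 runs each held 3 matches and those of Ccl3, Ccl4 and Cx3cl1 1 each.

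The peaks assigned to ligand genes numbered 13, since 1 peak between Ccl3 and Ccl4 was assigned to both. Of the 9 genes, 5 had 1 peak, 3 had 2 peaks and Ccl3 had 3. The scores of the 13 peaks ran from 3.17 to 37.1 with a median of 12.4. In the list, 7 of them stood at or above the median and 2, at Ccl3 and Cx3cl1, at or above the upper quartile. A peak of that height was present at 5.41% of ligand genes and 14.0% of all protein-coding genes. The peaks were mostly away from the promoters. A peak centre lay within 1 kb of a TSS at 3 ligand genes, Ccl3, Ccl4 and Ccl25, which is 8.11% of them (2.8% to 21.3%) beside 25.0% of protein-coding genes.

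**Figure D1:**
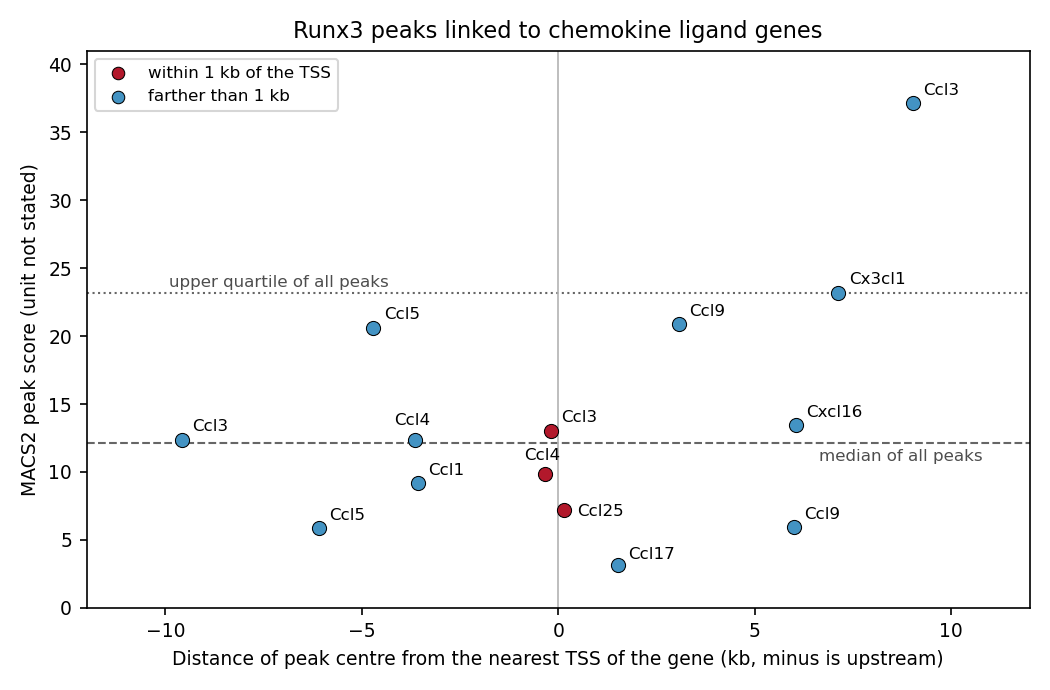
Score of each Runx3 peak (vertical axis, MACS2 score, unit not stated) against the distance of its centre from the nearest TSS of the ligand gene (horizontal axis, kb, minus is upstream). Each point is a peak assigned to the gene named beside it, red within 1 kb of the TSS and blue farther away, the peak shared by Ccl3 and Ccl4 is drawn once for each, and the lines mark the median (12.1) and upper quartile (23.2) of all 15121 peaks. The highest point, at Ccl3, has a score of 37.1 and lies 9033 bp downstream, and the 3 points within 1 kb score 13.1 or less.

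The genes for the MIP family, RANTES and the eotaxins held most of these peaks. These chemokines draw monocytes, eosinophils and T cells into inflamed tissue. Of the 8 genes in this group 4 had a peak, beside 40.0% of all protein-coding genes and 26.9% of those with windows of like length. They held 8 of the 13 peaks, and all 4 lie in a single cluster on chromosome 11.

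Ccl3 encodes the inflammatory chemokine MIP-1alpha and lies at chr11:83461346-83462857 on the minus strand. Its highest peak, at chr11:83453522-83454127, scored 37.12, above 87.7% of the list. It was intergenic, 9033 bp downstream of the Ccl3 TSS, and the TSS nearest to it, at 5299 bp, was that of the ribosomal protein pseudogene Rpl9-ps1. A second peak, at chr11:83462640-83463446, was centred 186 bp upstream of the Ccl3 TSS and scored 13.05. With 807 bp it was wide for a list with a median width of 406 bp, and it held 3 TGTGGT matches. The third, at chr11:83472212-83472670, scored 12.38 and lay in the interval between Ccl3 and Ccl4, 9584 bp upstream of Ccl3 and 3645 bp upstream of Ccl4.

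Ccl4, at chr11:83476086-83478185 on the plus strand, encodes the inflammatory chemokine MIP-1beta. Besides the shared peak it had one at chr11:83475555-83475954, centred 332 bp upstream of its TSS, with a score of 9.84. The 2 genes are transcribed away from each other, so this interval contained the promoters of both and 3 Runx3 peaks.

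Ccl5 (RANTES), a ligand of CCR1 and CCR3, lies at chr11:83339280-83344020 on the minus strand. Both of its peaks were upstream. That at chr11:83348499-83348955, 4707 bp from the TSS, scored 20.62, and its 3 TGTGGT matches lay 5, 50 and 52 bp from the centre. That at chr11:83349934-83350292, 6093 bp from the TSS, scored 5.86 and contained no match.

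Ccl9, a ligand of CCR1 that recruits dendritic cells and their precursors, lies at chr11:83386421-83392138 on the minus strand. Both of its peaks were downstream of the gene's 3′ end. The nearer one, at chr11:83385688-83386144, lay 3065 bp from the nearest of the gene's 3 annotated TSSs, which is inside the gene. It scored 20.88, held no TGTGGT and had GAGGAA, the letters searched for the ETS family, 3 bp from its centre. The farther one, at chr11:83382733-83383247 and 5991 bp from the same TSS, scored 5.96 and held 4 TGTGGT matches, the most of any of the 13 peaks. Score and the number of matches thus went opposite ways between the 2 peaks of Ccl9.

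The fifth gene of the cluster, Ccl6, another ligand of CCR1, had no peak, and the nearest centre was the Ccl9 peak at 17.5 kb. Between Ccl5 and Ccl9 lay 2 further peaks that were more than 10 kb from any ligand TSS. They were among the highest of the locus, with scores of 38.11 at chr11:83363630-83364312, which held 3 TGTGGT matches, and 25.84 at chr11:83373911-83374295, which held 1. From Ccl5 to Ccl4, with 10 kb on either side, the locus covered 159 kb and held 10 peaks, or 6.29 per 100 kb, beside 0.591 per 100 kb of the sequenced genome. Of 15843 genomic windows of 160 kb, 0.49% held 10 or more peaks and 64.6% held none.

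**Figure D2:**
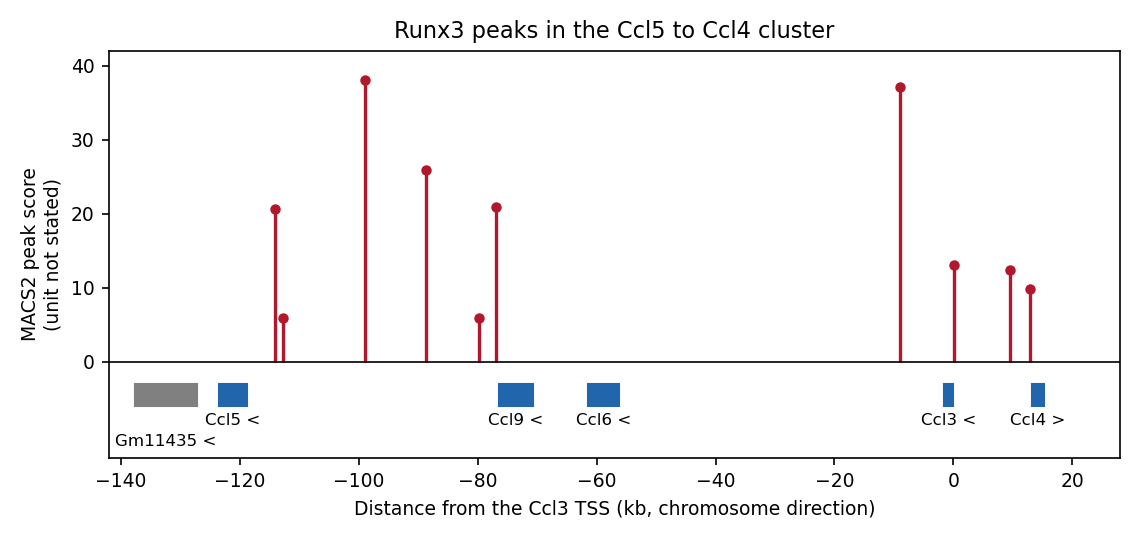
Runx3 peaks along the cluster from Ccl5 to Ccl4, with the distance from the Ccl3 TSS in kb on the horizontal axis and the MACS2 score (unit not stated) on the vertical axis. Each red line is a peak at its centre, blue boxes are ligand genes and the grey box is another gene, both to scale, and the arrowheads give the direction of transcription. The 10 peaks lie in a group around Ccl5 and Ccl9 and a group around Ccl3 and Ccl4, and the highest, at 38.11, stands between Ccl5 and Ccl9.

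The remaining 3 genes of the group code for the eotaxins, ligands of CCR3 that attract eosinophils, and none of them had a peak. The nearest centre was at 11.8 kb for Ccl26, 21.3 kb for Ccl24 and 36.3 kb for Ccl11.

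No ligand gene of the CCR2 group had a peak. CCR2 mobilizes monocytes from the bone marrow. The nearest centre was 14.0 kb upstream of the TSS of Ccl2 (MCP-1), the principal ligand, and the distance was 24.2 kb for Ccl7, 68.2 kb for Ccl8, which in the mouse also binds CCR8, and 80.3 kb for Ccl12. These genes form a second cluster on chromosome 11 with Ccl11 and Ccl1. With its flanks this cluster covered 164 kb, a length close to that of the Ccl5 to Ccl4 locus, and held 1 peak, at Ccl1. In the genome 78.1% of the windows of 160 kb held 1 peak or none.

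Ccl1 encodes a ligand of CCR8, a receptor of regulatory and Th2 cells. Its coding transcript ends at chr11:81990159 and starts at chr11:81993316 on the minus strand, and a noncoding processed transcript extends the annotated gene to chr11:82119192. The peak at chr11:81996725-81997036 lay 3564 bp upstream of the coding TSS, in an intron of the processed transcript, and scored 9.16. It was narrow, with 312 bp, and contained 3 TGTGGT matches at 29, 72 and 77 bp from its centre.

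Of the genes for the ligands of CCR4, a receptor of Th2 cells, skin-homing T cells and regulatory T cells, Ccl17 had a peak and Ccl22 had none. The Ccl17 peak (chr8:97335740-97335998) was among the lowest of the list, with a score of 3.17, above 2.1% of the peaks. It lay 1516 bp downstream of the TSS of Ccl17 (chr8:97334353-97335935, plus strand) in the untranslated part of exon 3, and held no TGTGGT. The nearest centre to Ccl22 was at 13.6 kb.

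Cx3cl1 lies between Ccl22 and Ccl17 on chromosome 8, at chr8:97295909-97306323 on the plus strand. It codes for fractalkine, a membrane-bound chemokine that binds CX3CR1. Its peak at chr8:97303023-97303485 lay in intron 2, 7129 bp downstream of the TSS, and with 23.19 scored second among the 13. It held a TGTGGT 26 bp from the centre and 2 matches to the NF-kappaB consensus.

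The peaks of Cxcl16 and Ccl25 were also close to a TSS of a neighbouring gene. Cxcl16, the transmembrane ligand of CXCR6, lies at chr11:70267485-70273486 on the minus strand. Its peak (chr11:70266563-70267158, score 13.43) was 6050 bp downstream of its TSS, inside the neighbouring gene Med11, a subunit of the Mediator complex, and 1426 bp from a TSS of Med11. Ccl25, which guides CCR9-positive T cells to the thymus and small intestine, lies at chr8:4325210-4360020 on the plus strand. Its peak (chr8:4325109-4325681, score 7.20) was centred 154 bp downstream of a Ccl25 TSS, in intron 1, and 295 bp from the TSS of Elavl1, an RNA-binding protein gene. Another Ccl25 TSS, at chr8:4349588 and used by 2 annotated transcripts, had its nearest peak 24.2 kb away.

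Of the CXC chemokine genes among the 37, none other than Cxcl16 had a peak. Among the genes for ligands of CXCR2, the neutrophil receptor, the nearest centre was at 17.2 kb for Cxcl5, 44.0 kb for Cxcl3, 149 kb for Cxcl1 and 162 kb for Cxcl2. Cxcl15, an epithelial gene of the same cluster whose receptor is not settled, had its nearest peak at 52.4 kb. This cluster covered 167 kb with its flanks and held 0 peaks. For the ligands of CXCR3, which attract activated T cells and natural killer cells, the distance was 18.1 kb at Cxcl9 and 26000 bp at Cxcl10. The distance was 17.2 kb for Cxcl17, 113 kb for Cxcl14, 206 kb for Cxcl13, which draws B cells into follicles, and 263 kb for Cxcl12, the ligand of CXCR4 that holds cells in the bone marrow. Of the remaining ligands without a peak, Xcl1, which attracts XCR1-positive dendritic cells, had its nearest centre at 64.5 kb and Ccl20, the ligand of CCR6, at 277 kb.

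The genes for the CCR7 ligands, which lead dendritic cells into lymph nodes, could hardly be assessed. The study kept reads of 50 bases that aligned at 1 place in the genome, and the windows searched around these genes consisted of repeated sequence. The share of 50-base words that occur once in mm9 was 0.0% in the windows of Ccl19 and Ccl21a, 0.01% at Ccl21c and 0.596% at Ccl21b. When contigs outside the chromosomes were left out, it was 21.9% at Ccl21b, and whether the aligned genome included them is not given in the sources used here. It was 0.0% at Ccl27b as well, which codes for a ligand of CCR10. At Ccl19, Ccl21a, Ccl21c and Ccl27b almost no read could align at 1 place, so the lack of a peak there carries no information on Runx3 binding, and at Ccl21b most of the window was out of reach of such reads. Ccl27a followed with 54.6%, and its nearest peak was at 29.0 kb. Outside the 5 genes 9 of 32 had a peak, or 28.1%, and every ligand gene with a peak had a window of at least 93.5% unique words.

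Over all 37 ligand genes the nearest peak centre was at a median of 26000 bp from a TSS, beside 27719 bp over all protein-coding genes. Fewer of the ligand genes had it within 10 kb, 24.3% against 36.7%, and more had it between 10 and 50 kb, 35.1% against 22.8%. Beyond 100 kb the shares were 27.0% and 29.6%. These ligand values include the 5 genes with windows under 50% unique. Of those, Ccl19, Ccl21a, Ccl21c and Ccl27b are counted beyond 100 kb, where a nearer peak could hardly have been called. No test was made of these differences.

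**Figure D3:**
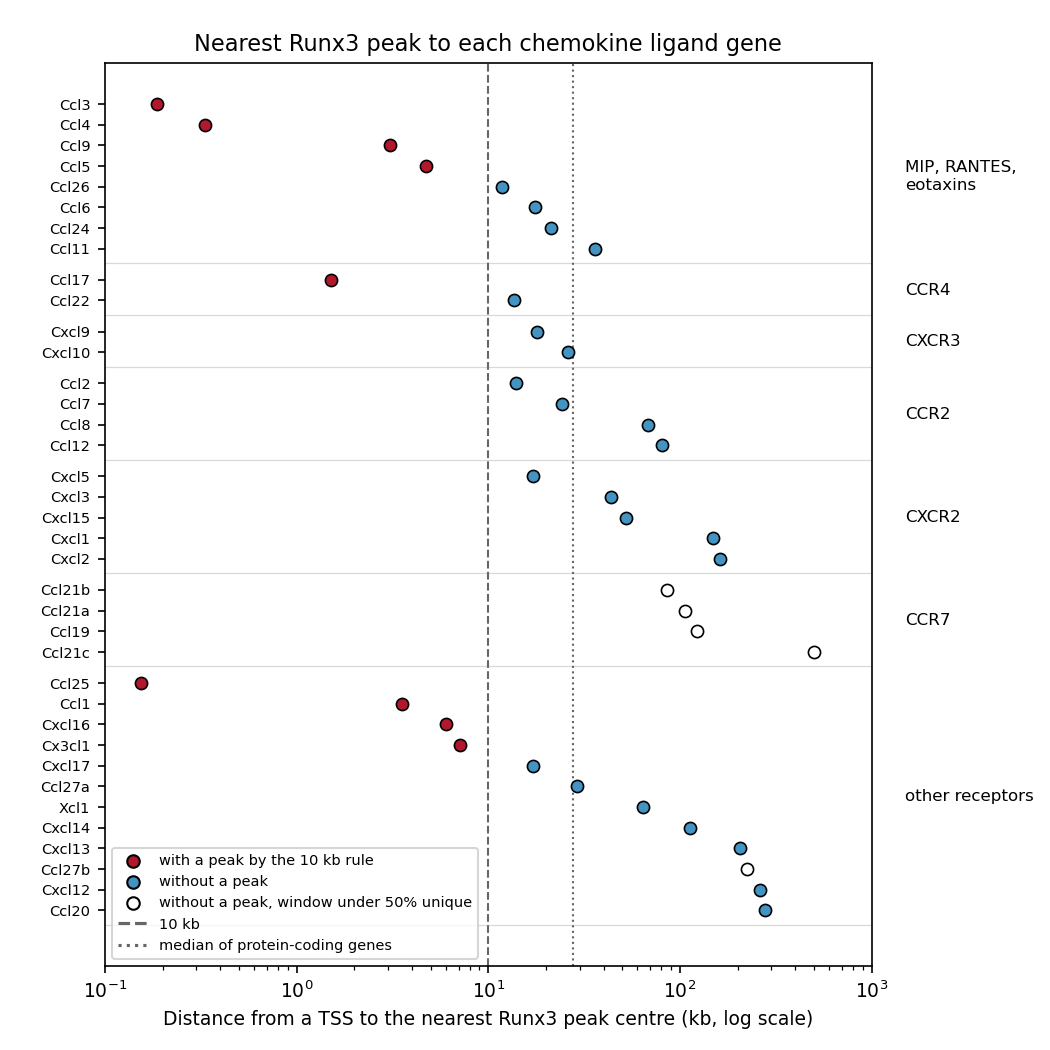
Distance from a TSS of each chemokine ligand gene to the nearest Runx3 peak centre (horizontal axis, kb, log scale), with genes in rows grouped by the receptor of the ligand, with the MIP family, RANTES and the eotaxins as 1 group. Red points are the 9 genes with a peak by the 10 kb rule, blue points genes without one and open points the 5 genes whose window is under 50% unique, and the lines mark 10 kb and the median of protein-coding genes (27.7 kb). Red points occur in the group of the MIP family, RANTES and the eotaxins, the CCR4 group and among ligands with other receptors, with none in the CXCR3, CCR2, CXCR2 and CCR7 groups.

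The ligand genes differed from protein-coding genes at large in length and in promoter type, and both moved with the share of genes bound. The window searched had a median of 20006 bp for ligand genes and 27774 bp for all. Of the 9246 protein-coding genes with a window between the 10th and the 90th percentile of those of the ligand genes, 26.9% had a peak. The CpG ratio was the observed over the expected number of CG dinucleotides in the 1 kb around the outermost annotated TSS of a gene. At Ccl1 that TSS belongs to the noncoding processed transcript, so the ratio does not describe the coding promoter. The ratio was under 0.5 in 33 of the 37 ligand genes. Of these CpG-poor ligand genes 21.2% had a peak, and of all CpG-poor protein-coding genes 20.9%. The 33 include the 5 genes with windows under 50% unique, which count as genes without a peak though they could hardly be assessed. Within 1 kb of any annotated TSS of the gene the shares were 6.06% and 7.52%. The share bound was 56.5% for protein-coding genes with a ratio of 0.5 or higher, and 40.2% within 1 kb. Of these the ligand genes made up 4, Ccl25 and Cxcl16 with a peak and Cxcl12 and Cxcl14 without. Beside genes with windows or promoters of the same kind, the share of ligand genes with a peak was thus close to the background, and the part of window length and promoter type in the difference from all genes was not tested.

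The receptors of these ligands were listed by the same rule. Of 24 chemokine receptor genes 16 had a peak, or 66.7% (46.7% to 82.0%), and 6 had one within 1 kb of a TSS (25.0%). The window of the receptor genes was as short as that of the ligand genes, with a median of 20005 bp, and 22 of the 24 were CpG-poor, of which 63.6% had a peak and 22.7% had one within 1 kb. The nearest centre was between 10 and 50 kb for 25.0% of them, and between 50 and 100 kb and beyond for 4.17% each. Their 27 distinct peaks had a median score of 9.16. The highest scores of this list were 89.22 at Ccr6, 58.54 at Cx3cr1 and 37.12 at Cxcr3. Receptor and ligand could be set side by side. Ccr1 had 1 peak, with Ccl3, Ccl5 and Ccl9 bound among its ligands. Cx3cr1 (3 peaks), Ccr9 (3 peaks) and their ligand genes Cx3cl1 and Ccl25 were each bound. Ccr2 (2 peaks), Ccr6 (4 peaks), Cxcr4 (1 peak), Cxcr5 (2 peaks) and Xcr1 (2 peaks) were bound where no ligand gene of theirs among the 37 was. Ccr10 had 2 peaks and Ccl27a none, while Ccl27b could not be assessed. Cxcr3 had 1 peak and its ligand genes Cxcl9 and Cxcl10 none. Cxcl11, which carries the name of a further CXCR3 ligand, is annotated as noncoding and so was kept out of the 37. It had a peak centre 9404 bp from a TSS. That peak (chr5:92803735-92804095) scored 4.3, low in a list with a median of 12.1. Ccr4, Ccr8 and Cxcr6 had no peak while Ccl17, Ccl1 and Cxcl16 had one. Ccl22, also a ligand gene of CCR4, and Ccl8, whose product also binds CCR8, had none. Ccr3 had no peak, and of its ligand genes Ccl5 had 2 peaks while the eotaxin genes Ccl11, Ccl24 and Ccl26 had none. Ccr7 had 2 peaks, the nearer of them 47 bp from a TSS, but its ligand genes could hardly be assessed. Neither Cxcr2 nor any of its ligand genes had a peak.

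**Figure D4:**
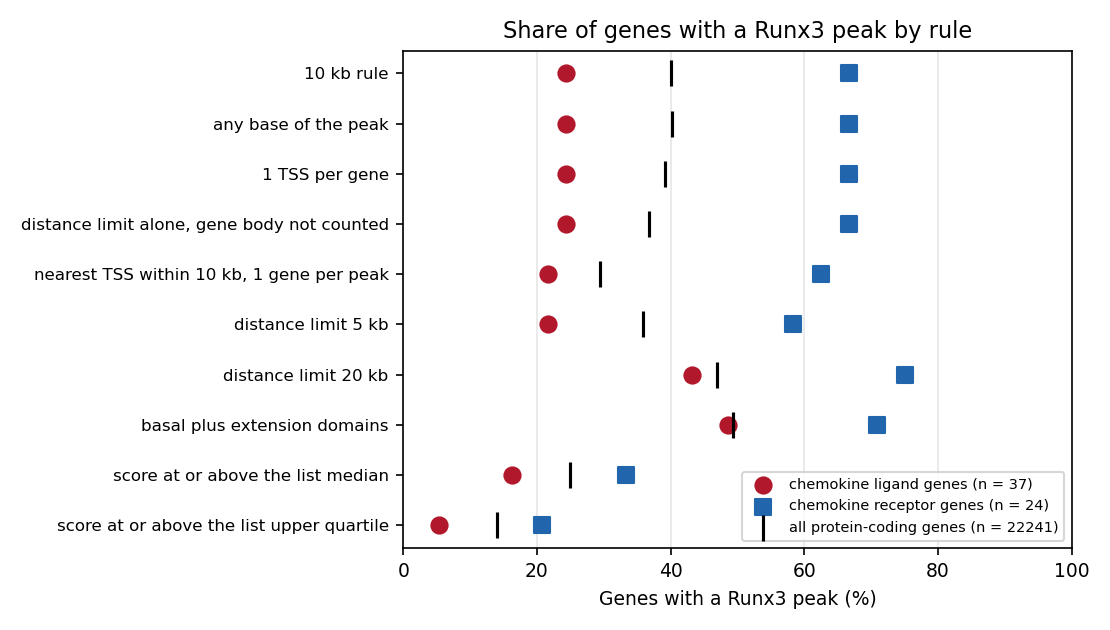
Percentage of genes with a Runx3 peak (horizontal axis) under each way of assigning or selecting peaks (rows), for 37 chemokine ligand genes (red circles), 24 chemokine receptor genes (blue squares) and all 22241 protein-coding genes (black bars). Under the 10 kb rule the values are 24.3%, 66.7% and 40.0%, and in all 10 rows the ligand genes stand below the receptor genes, while with a limit of 20 kb (43.2%) and with basal plus extension domains (48.6%) they come near the protein-coding genes at 47.0% and 49.4%.

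The 13 peaks were searched for 6 short sequences on both strands, and a match describes letters and not a bound site. TGTGGT occurred in 10 of the 13 (76.9%, 49.7% to 91.8%) and in 54.0% of all peaks. The 13 peaks were wider, with a median of 459 bp beside 406 bp for the list. In the central 200 bp TGTGGT occurred in 7 of the 13 (53.8%, 29.1% to 76.8%) and in 41.8% of all peaks. Over whole peaks, with C also allowed at the first and the third letter, the pattern occurred in 76.9% of the 13 and in 76.6% of all peaks. TGTGGT lay at a median of 39 bp from the centre in those 10 peaks and 45 bp over the list. In windows as wide as the peaks and 10 kb downstream of them it occurred in 2 of 12 and in 30.9% for all peaks. The peaks without it were the second Ccl5 peak, the nearer Ccl9 peak and the Ccl17 peak, with scores of 5.86, 20.88 and 3.17. GAGGAA, the letters searched for the ETS family, occurred in 8 of the 13 and in 53.6% of all peaks. A consensus of the interferon response element occurred in 2, the second Ccl5 peak and the peak between Ccl3 and Ccl4, and in 6.48% of all peaks. The NF-kappaB consensus also occurred in 2, at Ccl5 and Cx3cl1, and in 10.3% of all peaks. TGACGT, the letters searched for the dendritic cell factor zDC, occurred in the Ccl25 peak alone, as 2 overlapping matches on opposite strands, and in 11.0% of all peaks. The AP-1 site TGANTCA occurred in none of the 13 (upper bound 22.8%) and in 13.2% of all peaks. The median GC content was 50.5% in the 13 peaks and 50.7% over the list.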

How the data were processed

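Runx3 ChIP-seq of sorted splenic CD4+ DC was analysed from the deposited peak list. Per the labels and the study's methods, 50 bp reads of 2 Runx3 immunoprecipitates and 2 inputs were processed with CASAVA 1.8, aligned uniquely to mm9 with Bowtie and pooled for peak calling with MACS2. MACS2 version, threshold and duplicate handling are not given in the sources used here. The score column was deposited by the authors with no unit, so scores were ranked only within the list. Read counts per library were not analysed here, and 1 item is not reported here.

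Genes came from GENCODE M1, whose build is that of the peaks (NCBIM37, mm9). Records of 1 symbol on the same chromosome and strand were merged, so the 2 Ccl25 records count as 1 gene and 22380 records as 22241 genes. Ccl28 was not found under that symbol. Wilson 95% intervals treat genes or peaks as independent counts. With a single pooled call, comparisons between samples and tests were not possible.

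The members, the receptor list and the motifs were chosen with earlier results of these data known. Full values were given for the 10 ligand genes with the highest peak scores, which took in all 9 with a peak, and for those with a peak within 1 kb of a TSS. The others were named with the distance to their nearest peak, except the 5 genes with windows under 50% unique. Uniqueness was the share of exact 50-base words, on both strands, that occur once in the genome. Alternatives were other score limits, distances and assignment rules. Peak assignment and motif search were tested on simulated data. Sequences were read from the mm9 genome. Python 3.11.15 was used with numpy 2.4.6, scipy 1.17.1, pandas 2.3.3, numba 0.67.0, pysam 0.24.0 and matplotlib 3.10.9.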

Additional observations from a re-analysis of the deposited data

How the results depend on the processing

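No paired analysis was possible because the replicate numbers shared by immunoprecipitates and inputs belong to libraries that were pooled into 1 peak call, and for the same reason no replicate could be left out. Requiring at least the median score of all peaks left 6 ligand genes with 7 peaks of median score 20.6, 8 receptor genes and 25.0% of protein-coding genes. At or above the upper quartile there were 2 ligand peaks at 2 genes with a median score of 30.2, 5 receptor genes and 14.0% of protein-coding genes, and TGTGGT occurred in both peaks (100%). A distance limit of 20 kb gave 22 ligand peaks, 16 ligand genes and 47.0% of protein-coding genes, and basal plus extension domains gave 18 ligand genes and 49.4%. The protein-coding share was 35.9% with a limit of 5 kb, 39.2% with 1 TSS per gene, 36.7% without the gene body, 29.5% with 1 gene per peak and 26.9% over genes with windows like those of the ligand genes. With alternatives chosen after seeing the data it was 39.3% for protein-coding transcripts alone and 20.9% for CpG-poor genes. In the windows 10 kb downstream TGTGGT occurred in 16.7% (2 of 12). The number of ligand genes with a peak was within 1.5 times of 9 under 8 of 11 alternatives, with 6, the edge of that range, as the lowest of the 8. Among the 8 was the limit to genes with windows at least 50% unique. It could not change the count, because every ligand gene with a peak had at least 93.5%. The cause of the changes was not tested beyond their construction. The peak list held no read counts and no values per replicate, so a missing peak cannot be told apart from too few reads.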

Other observations

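Some values fell outside the counts. Cxcl11, which carries the name of a CXCR3 ligand, is annotated as a noncoding processed transcript in GENCODE M1 and so was no member. Whether it codes for a functional protein in the strain studied was not examined. The gene lies at chr5:92788570-92794511, and the distance from its TSSs to the closest peak centre, of a peak that scored 4.3, was 9404 bp. The platelet chemokine genes Pf4 and Ppbp, whose symbols are outside the rule, had no peak, and the nearest centres were at 30289 and 26372 bp.

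Just beyond the 10 kb limit, 7 ligand genes without a peak had a centre within 20 kb, chosen here by that limit. The peak 14018 bp upstream of Ccl2 (chr11:81834871-81835240) scored 15.66 and held 3 TGTGGT matches, and the TSS of Ccl2 was the nearest to it. The peak 17153 bp upstream of Cxcl5 (chr5:91170941-91171404) scored 17.32, held 2 matches and was also nearest to its ligand gene. The peak 13577 bp from the TSS of Ccl22 scored 7.84 and was nearer to Cx3cl1, at 12752 bp. The other 4 were nearest to the TSS of a different gene. For Ccl26 that gene was Hip1 (6621 bp), for Cxcl17 it was the hormone-sensitive lipase gene Lipe (279 bp), for Cxcl9 it was Sdad1 (20 bp) and for Ccl6 it was Ccl9. Just inside the limit stood the peak 9584 bp from Ccl3, with a score of 12.38, and that 9033 bp from Ccl3, with 37.12.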
